A study of Mus musculus with 23 samples.

Results

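The comparison set mouse embryonic fibroblasts whose p53 carried a disrupted first activation domain (25,26) against fibroblasts without functional p53 (Null), and asked gene by gene and pathway by pathway what the mutant protein still did. Arrays were taken by their titles, which gave 5 arrays of 25,26 cells and 6 arrays of Null cells, 11 of the 23 in the series. The 25,26 cells held a knock-in p53 allele behind a removable stop cassette (LSL-25,26) and received Cre adenovirus. The QM cells (n = 3) held the same kind of allele with both activation domains disrupted (LSL-QM) and Cre adenovirus. The WT cells (n = 6) were LSL-WT cells with Cre adenovirus (n = 3) and WT cells with Cre adenovirus (n = 3). The Null cells were LSL-WT cells given an adenovirus without Cre, in which the cassette stays in place (LSL-WT Empty, n = 3), and p53-null cells with Cre adenovirus (Null Cre, n = 3). All of these cells also carried retroviral H-Ras V12, so no group shows p53 without the oncogene. The design text calls the arrays biological samples; the labels give neither the zygosity of the alleles nor whether 2 arrays came from 1 embryo, and p-values measure the spread between these samples.

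Wild-type p53 is a transcription factor that binds DNA as a tetramer and recruits the transcription machinery through 2 neighbouring activation domains near its amino terminus. Its best known targets stop the cell cycle (Cdkn1a), remove p53 itself (Mdm2) and promote cell death (Pmaip1, Perp). In fibroblasts with an active Ras oncogene, p53 brings about senescence, a lasting arrest in which cell-cycle genes are held down by the retinoblastoma protein and its relatives.

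Expression was read on Affymetrix arrays as 1 intensity per probe set and is given here as log2. Where a gene had several probe sets the brightest on average was used, and 15266 genes were tested with limma in 1 model over all 23 arrays, with the number in the sample title (1 to 5) as a block. Differences (25,26 minus the other group, log2) come from that model with their standard error. A gene is said to have risen or fallen at a Benjamini-Hochberg adjusted p under 0.05. Only 25,26 replicate 5 carried title number 5, so it has no weight in these differences, which rest on 4 of the 5 arrays of 25,26 cells; means, SDs and array values include it. Strain background was 129/Sv for 4 of 5 25,26 arrays and 4 of 6 Null arrays, and mixed for the others. It was 129/Sv for 2 of 3 QM, 1 of 3 LSL-WT Cre and 2 of 3 WT Cre arrays, and mixed for the others, so strain also differs in those comparisons. The remaining 3 arrays of the series, of a different LSL allele with Cre, are not compared here. They were in the model and so add to the spread and title-number effects it estimates. The female transcript Xist exceeded a log2 level of 8 in 4 of 5 25,26 arrays and 1 of 6 Null arrays, and a fit that included its level gave other counts for several lists. The targeted gene itself was not analysed here. The RNA came from whole cultures, so fewer cells with a transcript and less of it per cell cannot be told apart.

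In 25,26 cells 1164 genes were higher and 1003 lower than in Null cells, 7.62% and 6.57% of the genes tested. Of these, 125 and 16 differed by at least 2-fold. Without the block the counts were 461 and 195 (3.02% and 1.28%), and 654 genes were called in the same direction by both fits. Over all genes the median difference was -0.01. Among 24 gene lists the genes that rose most were p53 targets and lysosomal genes. With the block, the genes that fell were mainly those of DNA replication, mitosis, recombination and ribosome production. Without it 0 of 38, 1 of 43, 1 of 19 and 3 of 23 genes of these lists fell. The mitosis count was also 0 without 25,26 replicate 2.

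**Figure D1:**
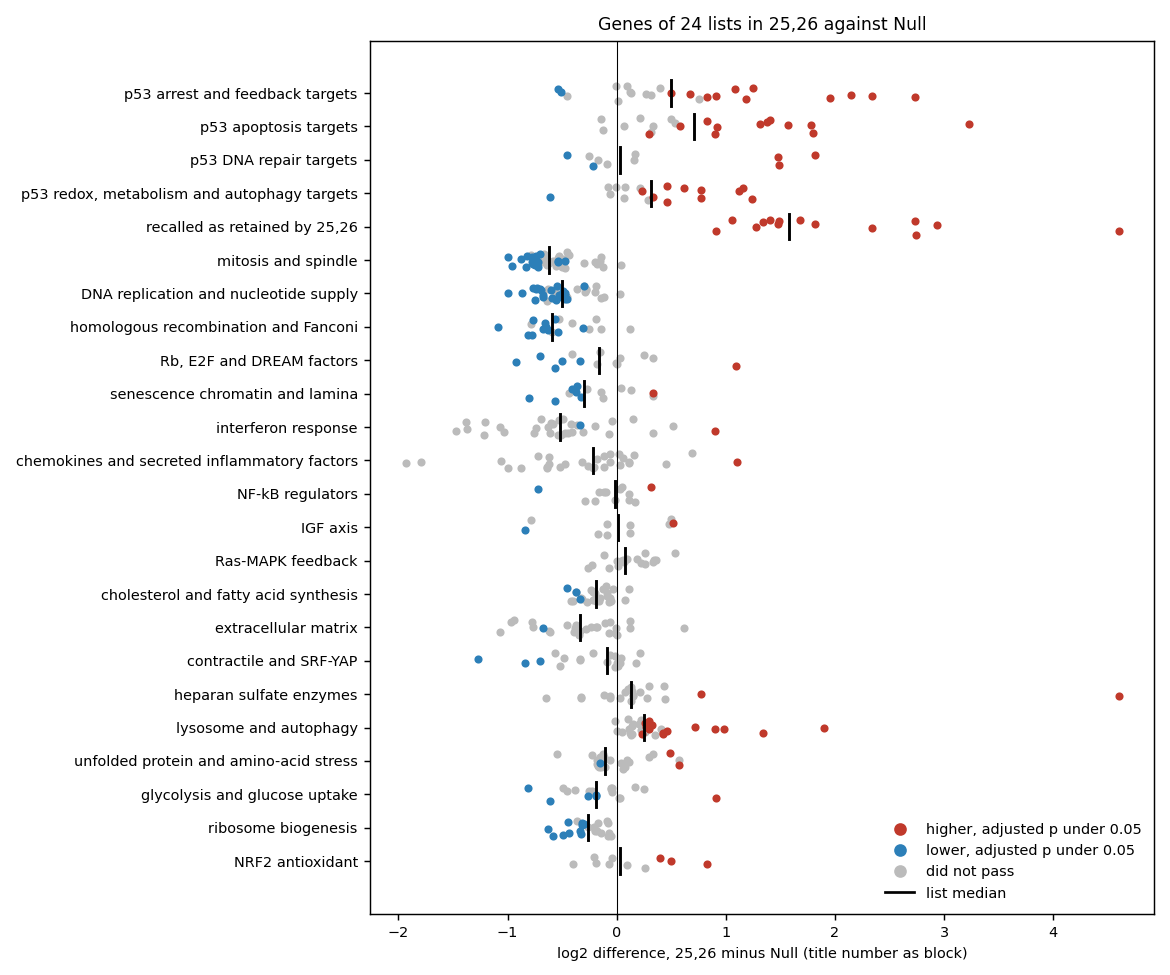
Log2 difference of each tested gene, 25,26 minus Null with title number as block (x axis), in 24 gene lists (rows). Red points were higher and blue points lower at an adjusted p under 0.05, grey points did not pass, and black bars are list medians, which run from -0.62 for mitosis to 1.58 for the genes recalled as retained by 25,26.

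Sulf2, which removes sulfate from heparan sulfate chains outside the cell, had the largest rise of all genes tested. Its log2 level was 12.31, 12.23, 13.00, 12.47 and 12.60 in 25,26 replicates 1 to 5, against a lowest, median and highest of 7.07, 7.95 and 8.45 in Null cells. The groups lay far apart, with a difference of 4.60 ± 0.17 (SE), a 24.2-fold higher level (adjusted p = 1.14e-11). A second Sulf2 probe set gave 4.68 ± 0.19, while the third gave 0.02 ± 0.09. In QM cells Sulf2 stood at 9.54, 9.05 and 10.02, between the groups, and 25,26 exceeded QM by 2.96 (adjusted p = 3.15e-07). In WT cells it ranged from 12.53 to 13.15, and 25,26 differed from WT by -0.42 (95% interval -0.79 to -0.06, adjusted p = 0.121).

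Sulf2 belongs to 15 genes recalled from published work as still activated by the 25,26 protein, a list in part chosen on these same samples and so no independent evidence. All 14 that were measured rose, with and without the block, with a median of 1.58, and each was also higher than in QM cells, where 2.27% of all genes tested were higher and 1.68% lower. Crip2, a LIM-domain protein, had log2 levels of 12.18, 12.10, 12.40, 11.88 and 11.83 in 25,26 cells, against 8.67 to 9.67 in Null cells, and rose by 2.93 ± 0.22 (adjusted p = 2.37e-07). Def6 stood at 9.24, 9.48, 9.13, 8.84 and 8.89 in 25,26 cells, against 6.06 to 6.94 in Null cells, and rose by 2.74 ± 0.14 (adjusted p = 2.75e-09). No Null array reached the lowest 25,26 array for either gene. Of the 14, 6 were lower in 25,26 than in WT cells (Trp53inp1, Ccng1, Phlda3, Rgs12, Arap2 and Ercc5) and none was higher, against 4.97% and 7.0% of all genes tested. Def6 differed from WT by 0.00 (95% interval -0.32 to 0.31) and Crip2 by -0.39 (95% interval -0.86 to 0.09), so neither difference from WT passed at this number of arrays.

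The promoters of rising genes were searched for the p53 consensus, a pair of adjoining 10-base elements, each with a fixed C and G at its core, with no spacer and on either strand, since the pattern reads the same on both. RefSeq promoter windows (GRCm38.p6, 250 bases before to 50 after the annotated start) were held for 12202 of the genes tested. At most 1 letter off the consensus outside the fixed C and G was found in 8 of them (0.0656%), in 4 of the 973 higher genes that have a window (0.411%) and in none of the 827 lower genes. At most 2 letters off, the counts were 57 (0.467%), 11 (1.13%) and 5 (0.605%). The 4 closest matches are shown with their surroundings, and Ccng1, Cdkn1a and Gtse1 are among the rises described next. Several other rises described below, among them Perp, Trp53inp1, Zmat3 and Pmaip1, had no promoter window and were not searched. Capitals mark the 20-base match, and each sequence runs along the strand of its gene.
Ccng1 (chr11:40755442-40755501, minus strand): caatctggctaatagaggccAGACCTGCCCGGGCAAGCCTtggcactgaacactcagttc
Cdkn1a (chr17:29090908-29090967, plus strand): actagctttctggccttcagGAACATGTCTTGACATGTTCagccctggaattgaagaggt
Gtse1 (chr15:85859925-85859964, plus strand): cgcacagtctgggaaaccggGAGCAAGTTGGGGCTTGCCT
Rps27l (chr9:66946276-66946335, plus strand): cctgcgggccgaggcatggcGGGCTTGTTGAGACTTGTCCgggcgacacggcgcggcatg
The match begins at position -195 from the annotated start in Ccng1, -117 in Rps27l and -51 in Cdkn1a, and it spans the start in Gtse1. A match is a statement about letters and says nothing of binding. Rps27l, a ribosomal protein relative known as a p53 target, was named after its sequence was seen, and its difference was 0.71 ± 0.06 (adjusted p = 7.12e-07).

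Among 23 genes for cell-cycle arrest and feedback on p53, 11 rose and 2 fell in 25,26 cells, with a median of 0.50, and without the block the counts were 11 and 1. Ccng1, which recruits a phosphatase to Mdm2, had log2 levels of 12.97, 13.12, 13.19, 13.07 and 13.11 in 25,26 cells, against 10.33, 10.84 and 10.95 (lowest, median, highest) in Null cells. It rose by 2.34 ± 0.08, or 5.07-fold (adjusted p = 3.2e-12), and the promoter match shown above lies in this gene. Trp53inp1, a stress protein that acts with p53 and in autophagy, had levels of 10.22, 10.90, 10.76, 10.48 and 10.46 in 25,26 cells, against 7.13 to 8.73 in Null cells. It rose by 2.73 ± 0.20 (adjusted p = 1.87e-07), with every 25,26 array above every Null array; its second probe set gave 0.75. Zmat3, an RNA-binding target of p53, stood at 10.23 to 10.55 in 25,26 cells, against 8.27 to 8.63 in Null cells, and rose by 1.95 ± 0.11 (adjusted p = 4.02e-09).

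Cdkn1a, which encodes the cyclin-dependent kinase inhibitor p21, changed less. Its log2 levels were 11.61, 12.33, 12.01, 11.64 and 11.58 in 25,26 cells, against 10.25, 11.19 and 11.75 (lowest, median, highest) in Null cells. The ranges overlapped, but 25,26 was higher within each of title numbers 1 to 4, by 1.36, 0.85, 1.04 and 0.45. The difference was 0.91 ± 0.14, or 1.88-fold (adjusted p = 0.000418; 0.0471 without the block), and 2.57 separated WT from Null. Mdm2, the ubiquitin ligase that removes p53, stood at 11.45, 11.88, 11.60, 11.39 and 11.36 in 25,26 cells, against 10.27 to 10.44 in Null cells. It rose by 1.25 ± 0.14 (adjusted p = 1.18e-05), with no overlap. A second probe set gave 1.45, and the dimmest, below the intensity floor on average, 0.06. Psrc1, a spindle protein, rose by 2.15 ± 0.22, and Gtse1, which restrains p53 in G2 phase, by 1.08 ± 0.15. Pml, the scaffold of nuclear bodies, rose by 0.83 ± 0.13 and Rchy1, another ubiquitin ligase of p53, by 0.50 ± 0.12. The calls of Ptprv (1.18 ± 0.38) and Plk2 (0.67 ± 0.19) were the least firm of the rises: 9 of the 11 arrays ended the first when left out alone, all except 25,26 replicates 4 and 5, with differences from 1.04 to 1.24. The second ended without 25,26 replicate 1, 3 or 4 or LSL-WT Empty replicate 3, at 0.57 to 0.68. Cdkn2d, an inhibitor of Cdk4 and Cdk6, fell by 0.51 ± 0.11 (adjusted p = 0.00494), and Gadd45b, a stress sensor, by 0.54 ± 0.14 (adjusted p = 0.0182), a call that ended without 25,26 replicate 2 (-0.33) and without the block (adjusted p = 0.266). Btg2 (0.75 ± 0.25, adjusted p = 0.0527), Rprm (0.40 ± 0.20), Gadd45a (-0.01 ± 0.12), Ppm1d (0.12 ± 0.12) and Mdm4 (0.13 ± 0.15) did not pass. In the same order WT minus Null was 2.21, 2.04, -0.04, 0.65 and 0.18, so WT itself moved Gadd45a and Mdm4 little.

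**Figure D2:**
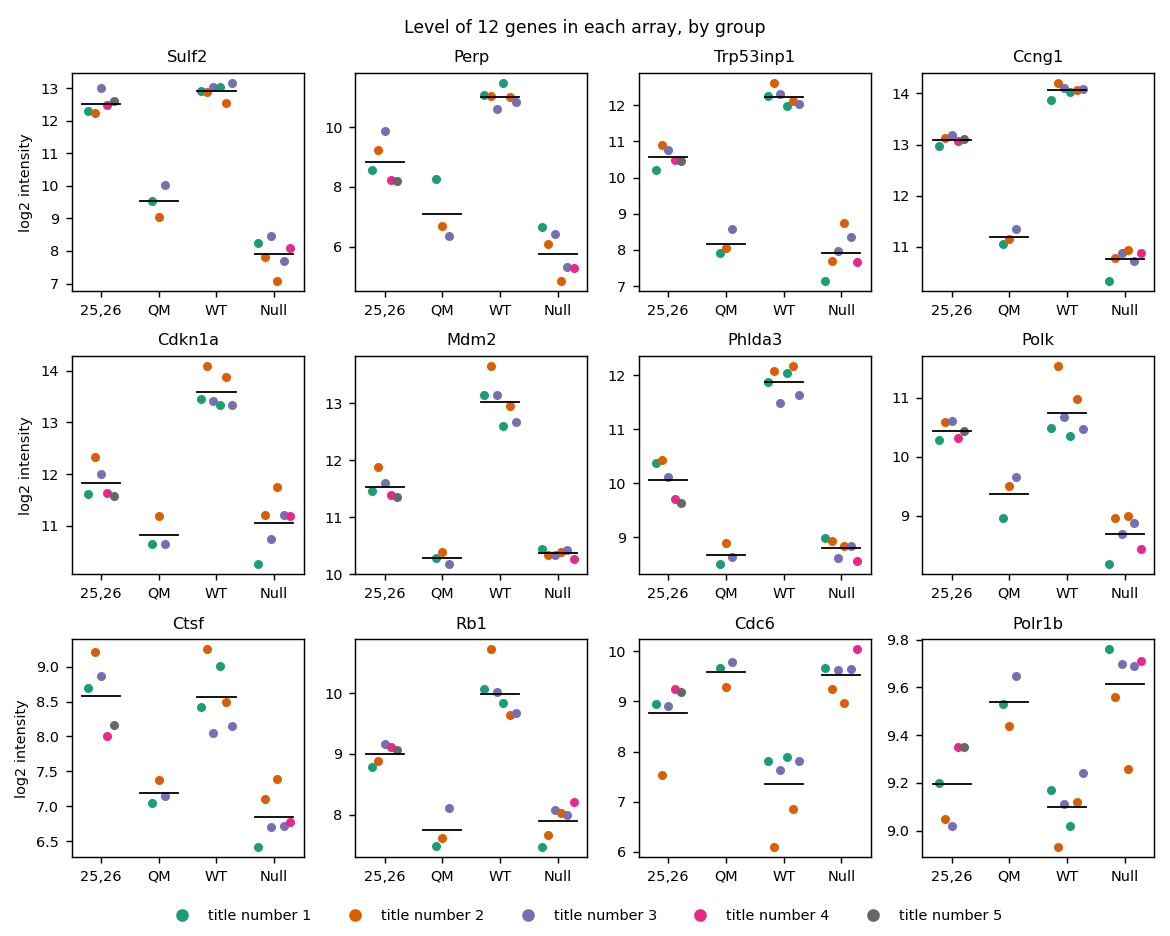
Log2 intensity (y axes) of 12 genes in each array of 25,26, QM, WT and Null cells (x axes), coloured by title number, with group means as black lines. For Sulf2, Ccng1, Mdm2, Phlda3, Polk and Rb1 all 25,26 points lie above all Null points, for Cdkn1a the ranges overlap (11.58 to 12.33 in 25,26 against 10.25 to 11.75 in Null), and for Cdc6 25,26 replicate 2 stands low at 7.54.

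Among 20 measured apoptosis targets, 12 rose and none fell, with a median of 0.71; without the block 9 rose. Perp, a membrane protein of desmosomes that promotes p53-dependent death, had log2 levels of 8.58, 9.22, 9.86, 8.24 and 8.18 in 25,26 cells, against 4.84, 5.70 and 6.65 (lowest, median, highest) in Null cells. It rose by 3.23 ± 0.35, or 9.35-fold (adjusted p = 1.08e-05), and its difference within a title number ran from 1.94 to 4.0. Pmaip1, the BH3-only protein Noxa, stood at 9.91, 10.58, 9.52, 8.61 and 8.59 in 25,26 cells, against 6.85 to 8.75 in Null cells. Replicates 4 and 5 overlapped the Null range, and the difference was 1.80 ± 0.26 (adjusted p = 0.000192). Phlda3, which blocks Akt at the membrane, stood at 10.38, 10.43, 10.11, 9.71 and 9.64 in 25,26 cells, against 8.56 to 8.98 in Null cells, and rose by 1.40 ± 0.09 (adjusted p = 8.92e-08).

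Apaf1, the scaffold of the apoptosome, was higher than in WT cells as well as Null cells. Its log2 levels were 10.49, 10.64, 10.93, 10.75 and 10.81 in 25,26 cells, 9.60 to 10.48 in WT cells and 9.02 to 9.62 in Null cells, so that every 25,26 array lay above every WT and Null array. It rose by 1.38 ± 0.13 over Null (adjusted p = 2.08e-06) and was higher than WT by 0.59 (95% interval 0.31 to 0.86, adjusted p = 0.008). It was the 1 apoptosis target of 20 that passed above WT, where 9 passed below; Steap3 and Casp6 differed from WT by 0.36 and 0.25 without passing. Eda2r, a TNF-family receptor, rose by 1.78 ± 0.23, Dapk1, a death-associated kinase, by 1.57 ± 0.22, Siva1 by 0.92 ± 0.11 and Aen, a nuclease, by 0.90 ± 0.14. Cyfip2 (1.31 ± 0.31) lost its call without 25,26 replicate 2 or 3 (1.18 and 1.19), and Ei24 (0.58 ± 0.15) without replicate 3 or 4 (0.51 and 0.55). Cyfip2, Steap3 (0.83 ± 0.24) and Casp6 (0.30 ± 0.08) passed with the block only (adjusted p = 0.0939, 0.533 and 0.122 without it). Casp6 lost its call without 25,26 replicate 2 or 3 (0.27 and 0.25), and Steap3 also without LSL-WT Empty replicate 2 or Null Cre replicate 2 or 4 (0.65 to 0.84 over the 5). Leaving out 25,26 replicate 3 lowered the count of apoptosis genes from 12 to 8. The death receptors Fas (0.50 ± 0.26, adjusted p = 0.223) and Tnfrsf10b (0.53 ± 0.21, adjusted p = 0.0988), the BH3-only genes Bbc3 (0.21 ± 0.14) and Bid (0.07 ± 0.15), Pidd1 (0.31 ± 0.19) and Dram1 (-0.13 ± 0.33) did not pass. In the same order WT minus Null was 1.59, 1.04, 0.71, 0.43, 1.36 and -0.66.

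The DNA repair list divided sharply. Of 10 measured genes, 3 rose, with and without the block, and these stand in the retained list as well. Polk, a translesion DNA polymerase, had log2 levels of 10.28, 10.59, 10.60, 10.31 and 10.43 in 25,26 cells, against 8.18 to 8.99 in Null cells, and rose by 1.82 ± 0.13 (adjusted p = 1.46e-07). Ercc5, a nuclease of nucleotide excision repair, stood at 8.49 to 9.04 in 25,26 cells, against 7.15 to 7.52 in Null cells, and rose by 1.48 ± 0.12 (adjusted p = 6.55e-07). The second Ercc5 probe set, below the intensity floor on average, gave 0.08. Mgmt, which repairs alkylated guanine, rose by 1.49 ± 0.13. Xpc (0.17 ± 0.10), Ddb2 (-0.09 ± 0.17) and Rrm2b (0.16 ± 0.11) did not pass, nor did they pass in the direct comparison with WT cells, where the differences were -0.22, 0.16 and -0.17. WT minus Null was also small for them, at 0.39, -0.25 and 0.33. Pcna, the replication clamp, fell by 0.46 ± 0.12 (adjusted p = 0.0136; 0.155 without the block), a call that ended without 25,26 replicate 2 (-0.39), and Fancc fell by 0.22 ± 0.07 at an adjusted p of 0.0451, which 7 single arrays ended: 25,26 replicates 1, 2 and 3, each LSL-WT Empty array and Null Cre replicate 2, at -0.17 to -0.23.

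Of 18 measured targets in redox control, metabolism and autophagy, 10 rose and 1 fell, with a median of 0.31; without the block 3 rose and 1 fell. The 3 were Acad11, an acyl-CoA dehydrogenase of mitochondria and peroxisomes, Ephx1, an epoxide hydrolase, and Cpt1c, a carnitine palmitoyltransferase. Acad11 had log2 levels from 9.58 to 10.05 in 25,26 cells, against 8.19 to 9.21 in Null cells, and rose by 1.24 ± 0.16 (adjusted p = 5.63e-05). It differed from WT by 0.21 (95% interval -0.12 to 0.55). Ephx1 rose by 1.16 ± 0.18 (adjusted p = 0.000345) and differed from WT by -2.79 (adjusted p = 6.48e-08), among the largest differences from WT. Cpt1c rose by 1.12 ± 0.15. With the block alone, smaller rises were called for Ulk1, the kinase that starts autophagy (0.62 ± 0.12, adjusted p = 0.00207; 0.326 without the block), Sesn2, a brake on mTORC1 (0.46 ± 0.11; adjusted p = 0.177 without it), and Tsc2, another (0.46 ± 0.10; 0.425 without it). Sod2, the mitochondrial superoxide dismutase, fell by 0.61 ± 0.15 (adjusted p = 0.0116), which ended without 25,26 replicate 2 (-0.57). Sesn1 (0.21 ± 0.08), Tigar (0.07 ± 0.08) and Ddit4 (0.08 ± 0.17) did not pass, where WT minus Null was -0.23, 0.36 and 1.20.

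**Figure D3:**
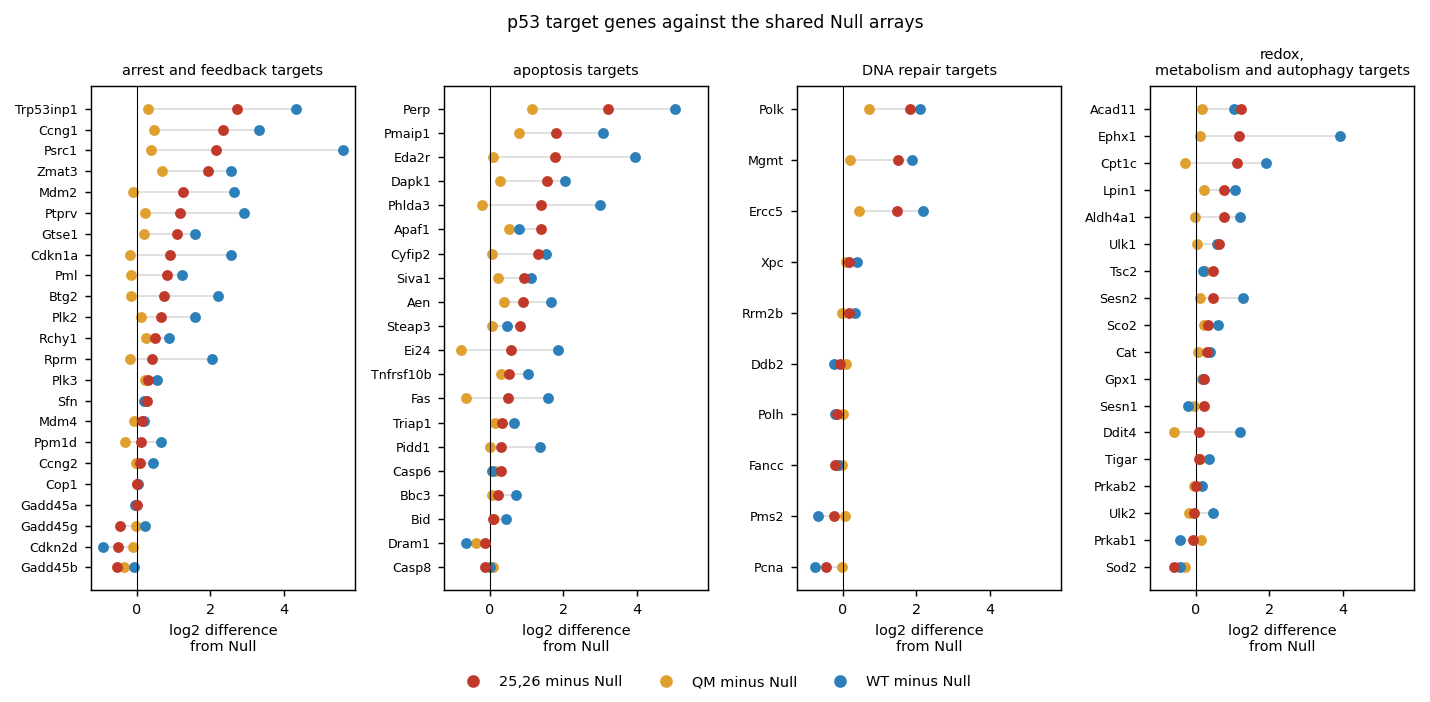
Log2 difference from Null (x axes) of each measured gene in 4 lists of p53 targets (rows) for 25,26, QM and WT cells; all 3 are set against the same 6 Null arrays. In 25,26 cells the points reach from -0.54 for Gadd45b to 3.23 for Perp in the arrest and apoptosis panels, and Apaf1 and Acad11 are among those beyond WT.

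Set directly against QM, in which the second domain was disrupted too, 25,26 cells had 347 genes higher and 256 lower, and 91 and 12 without the block. With the block these were 2.27% and 1.68% of all genes tested. Of the arrest and feedback genes 8 of 23 were higher and none lower, of the apoptosis genes 8 of 20 and none, of the DNA repair genes 3 of 10 and none, and of the redox genes 5 of 18 and none. Ccng1 was higher than in QM by 1.88, Mdm2 by 1.34, Cdkn1a by 1.11 and Phlda3 by 1.61, each at an adjusted p under 0.05. Perp (2.08, adjusted p = 0.0105) was higher too, although its QM levels of 8.25, 6.68 and 6.37 reached into the 25,26 range with replicate 1. Pmaip1 did not differ from QM beyond the test's threshold (1.02, adjusted p = 0.0771). QM itself differed from Null by 0.47 for Ccng1 and 1.64 for Sulf2, with -0.10 for Mdm2 and -0.20 for Cdkn1a.

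Against WT cells 1069 genes were higher and 759 lower in 25,26 (663 and 513 without the block). Of the arrest and feedback genes 13 of 23 were lower and 1 higher, with a median of -0.53, and WT exceeded Null by a median of 1.24. Cdkn1a differed from WT by -1.66 (95% interval -1.97 to -1.35), Mdm2 by -1.40 (-1.70 to -1.11) and Ccng1 by -1.0 (-1.16 to -0.84). Trp53inp1 differed from WT by -1.61 and Psrc1 by -3.49. Of the apoptosis genes 9 of 20 were lower, with a median of -0.48; Perp differed by -1.83 and Phlda3 by -1.60. Of the redox genes 6 of 18 were lower and 2 higher, and of the DNA repair genes 1 and 1 of 10.

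Genes of the lysosome and of autophagy included 14 that rose and none that fell. The 32 measured genes had a median of 0.25, against -0.01 over all genes; without the block 7 rose. In each of title numbers 1 to 4 the median was above 0 (0.21, 0.35, 0.26 and 0.22), and 23 of the 32 genes were higher in all 4, where 17.2% of all genes tested were. Ctsf, a cysteine cathepsin, had log2 levels of 8.69, 9.21, 8.86, 8.0 and 8.16 in 25,26 cells, against 6.41, 6.74 and 7.39 (lowest, median, highest) in Null cells. It rose by 1.90 ± 0.19, or 3.73-fold (adjusted p = 4.4e-06), though its dimmer second probe set gave -0.01. Tpp1, a lysosomal peptidase, stood at 12.55, 12.92, 12.59, 12.42 and 12.36 in 25,26 cells, against 11.44 to 11.92 in Null cells, and rose by 0.98 ± 0.07 (adjusted p = 2.23e-07). Sidt2, a lysosomal membrane protein, stood at 10.31 to 10.70 in 25,26 cells, against 9.06 to 9.44 in Null cells, and rose by 1.34 ± 0.12 (adjusted p = 1.75e-06). All 3 genes had every 25,26 array above every Null array. Ctsd, an aspartic protease, rose by 0.90 ± 0.08, and Atp6v0d1, a subunit of the proton pump, by 0.72 ± 0.09 (adjusted p = 4.01e-05; 0.0558 without the block). Ctsf, Sidt2 and Tpp1 differed from WT by 0.25, 0.13 and 0.13, with 95% intervals of -0.15 to 0.66, -0.14 to 0.39 and -0.03 to 0.28. The whole list had a median of -0.03 against WT, with 4 genes lower and none higher, while 6 were higher than in QM and none lower.

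Rb1, the retinoblastoma protein that holds E2F factors in check, rose with the p53 targets. Its log2 levels were 8.78, 8.88, 9.16, 9.11 and 9.06 in 25,26 cells, against 7.46, 8.01 and 8.20 (lowest, median, highest) in Null cells, with a difference of 1.09 ± 0.18 (adjusted p = 0.000585). Its second probe set, below the intensity floor on average, gave 0.10. It was also higher than in QM (1.19, adjusted p = 0.00532) and lower than in WT (-1.07, 95% interval -1.45 to -0.68). Rb1 was the 1 rise among 14 Rb, E2F and DREAM genes, which time the cell cycle; 5 fell, 2 when the Xist level entered the fit, and 1 without the block: Mybl2, a transcription factor of S phase (-0.92 ± 0.19, adjusted p = 0.00456; 0.00782 without the block), and, with the block alone, Foxm1 (-0.70 ± 0.16), Lin54 (-0.57 ± 0.15), which lost its call without 25,26 replicate 2 or 3 (-0.53 and -0.56), Lin9 (-0.50 ± 0.16), which lost it without any 1 of 9 arrays, all except 25,26 replicate 5 and Null Cre replicate 4, at -0.41 to -0.57, and Rbl1, which was named after its value was seen (-0.34 ± 0.11).

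Many cell-cycle genes were lower in 25,26 than in Null cells with the block, and few without it. Of 43 mitosis and spindle genes 17 fell with the block and 1 without it, with medians of -0.62 and -0.46. Of 38 replication and nucleotide genes 23 fell with the block and none without it (medians -0.50 and -0.42; 656 genes in all passed without the block). Of 19 recombination and Fanconi genes 11 fell with the block and 1 without it (medians -0.59 and -0.51). No gene of these 3 lists rose. Cdc6, which loads the replicative helicase, had log2 levels of 8.94, 7.54, 8.91, 9.25 and 9.19 in 25,26 cells, against 8.97, 9.63 and 10.04 (lowest, median, highest) in Null cells. It was named after its value was seen, and its difference was -1.0 ± 0.23 (adjusted p = 0.0072; 0.272 without the block). Brip1, a helicase that works with Brca1, passed in both fits, at 6.31, 6.12, 6.24, 6.36 and 6.46 in 25,26 cells, against 6.73 to 7.42 in Null cells, with no overlap. It fell by 0.78 ± 0.13 (adjusted p = 0.000755). Fbxo5, an inhibitor of the anaphase-promoting complex, stood at 8.90, 8.38, 8.80, 9.02 and 9.08 in 25,26 cells, against 9.47 to 10.17 in Null cells. It fell by 1.0 ± 0.24 (adjusted p = 0.00974; 0.0275 without the block), a call that ended without 25,26 replicate 2 (-0.90). With the block alone Mcm10 fell by 0.73 ± 0.12 and Cdc7 by 0.70 ± 0.12, both needed to fire replication origins, and Exo1, a nuclease named after its value was seen, by 1.09 ± 0.24.

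The levels of these lists differed between title numbers, and 1 array weighed on the counts. The mean log2 level of the mitosis list was 10.27, 9.36, 10.05, 10.30 and 10.28 in 25,26 replicates 1 to 5, against 10.27, 10.53 and 10.65 (lowest, median, highest) in Null cells. Replicate 2 stood low, and the WT arrays of title number 2 were also the lowest of their groups, at 7.96 and 8.38 against 9.29 to 9.44 for the other WT arrays. Within title numbers 1 to 4 the median difference of the mitosis genes was -0.32, -1.02, -0.54 and -0.37, and that of the replication genes -0.35, -0.77, -0.45 and -0.32. Both medians were below 0 in each number, and 37 of 43 mitosis and 34 of 38 replication genes were lower in all 4, against 18.7% of all genes tested. Lists with fewer calls also exceeded that share, at 57.7% for cholesterol, 47.4% for glycolysis and 46.9% for interferon genes, while chemokine genes stood at 16.7%. Without 25,26 replicate 2 none of the mitosis genes passed, among 1169 genes in all, and 7 replication genes did. Without 25,26 replicate 3 or 4 the mitosis count was 6 and 5. Without the arrays of title number 3 it was 2, and 9 replication genes fell. The Null side mattered as well: with the Null Cre arrays alone as Null 2 mitosis and 9 replication genes fell, and with the LSL-WT Empty arrays alone 10 and 20. When the Xist level entered the fit, 3 and 8 fell. In WT cells these genes were lower still: 37 of the 43 mitosis genes and 26 of the 38 replication genes were higher in 25,26 than in WT, with medians of 1.0 and 0.63. Against QM 2 mitosis genes and 10 replication genes were lower in 25,26 and none higher.

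**Figure D4:**
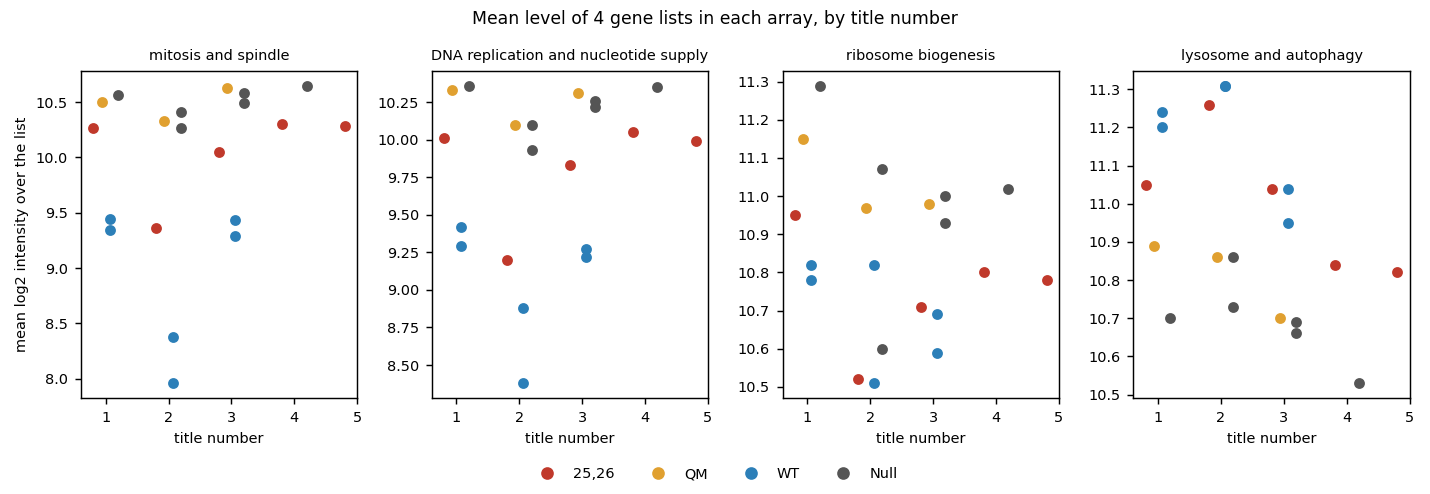
Mean log2 intensity over the genes of 4 lists (y axes) in each array of 25,26, QM, WT and Null cells, set out by title number (x axes). For mitosis and replication the 25,26 arrays of numbers 1 to 4 lie below the Null arrays of their own number, and above its WT arrays in numbers 1 to 3, with replicate 2 the lowest 25,26 array at 9.36 and 9.20; for lysosome and autophagy these arrays lie above the Null arrays of their number.

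Chromatin and lamina genes that mark senescence gave 6 falls and 1 rise among 14, none of them without the block, and 2 falls and no rise when the Xist level entered the fit. Hmgb2, a chromatin protein lost in senescent cells, fell by 0.80 ± 0.20 (adjusted p = 0.0133; 0.243 without the block), a call that ended without 25,26 replicate 3 (-0.74). H2ax fell by 0.33 ± 0.07 and Lbr, the lamin B receptor, by 0.57 ± 0.14. Lmnb1, whose loss is a marker of senescence, fell by 0.36 ± 0.10 (adjusted p = 0.0208; 0.736 without the block) and lost its call without 25,26 replicate 2, 3 or 4 (-0.32 to -0.37). Against WT 10 of the 14 genes were higher in 25,26 and none lower.

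Genes that build ribosomes were on the lower side in 25,26 cells, all 23 with a difference below 0. Of these, 10 fell and none rose, with a median of -0.26, and 3 fell without the block (Polr1b, Dkc1 and Nop56, the last named after its value was seen). Polr1b, the second largest subunit of RNA polymerase I, had log2 levels of 9.20, 9.05, 9.02, 9.35 and 9.35 in 25,26 cells, against 9.26, 9.70 and 9.76 (lowest, median, highest) in Null cells. Replicates 4 and 5 lay within the Null range, and the difference was -0.49 ± 0.08 (adjusted p = 0.000402). It differed from WT by 0.00 (95% interval -0.16 to 0.17). Nolc1, a nucleolar chaperone, fell by 0.63 ± 0.14 (adjusted p = 0.00565; 0.0796 without the block), and Dkc1, which modifies ribosomal RNA, by 0.45 ± 0.09. The list's median was below 0 in each title number (-0.36, -0.30, -0.25 and -0.20). Without 25,26 replicate 2 the count was 5, with the Null Cre arrays alone as Null 1 gene fell and with the LSL-WT Empty arrays alone 14, and without any array of title number 3 the count was 1. Against WT the median was 0.04, with 1 gene higher and none lower.

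The remaining lists held at most 5 genes that passed in either direction, where 7.62% of all genes tested rose and 6.57% fell. Some still lay above these shares with the block. Among them were glycolysis (5 falls of 19), the NRF2 list (3 rises of 10), contractile genes (3 falls of 19) and cholesterol synthesis (3 falls of 26). Of 32 interferon-response genes 1 rose and 1 fell, neither without the block, with a median of -0.52. The 2 kinds of Null cells gave different counts: 12 of these genes fell against the Null Cre arrays alone and none against the LSL-WT Empty arrays alone, with 3 rising there, and the within-number medians were 0.01, -1.01, -0.49 and -0.37. Strain and title numbers differ between the 2 kinds too, and cannot be told apart here from allele and Cre. Tap1, the peptide transporter for antigen presentation and a known p53 target, had a difference of 0.90 ± 0.28 (adjusted p = 0.0434; 0.274 without the block), and 8 single arrays ended its call, namely 25,26 replicates 1 to 4, each LSL-WT Empty array and Null Cre replicate 3, at 0.71 to 0.98. Of 30 chemokine and secreted inflammatory genes 1 rose, the adhesion receptor Icam1 (1.10 ± 0.29, adjusted p = 0.0176; 0.169 without the block), a call that ended without 25,26 replicate 2 or 3 (1.13 and 0.97). The cytokine Il6 (-1.79 ± 0.73, adjusted p = 0.118) and Saa3, an acute-phase protein (-1.93 ± 0.82, adjusted p = 0.133), had wide errors. None of the 18 Ras-MAPK feedback genes passed with limma in either fit, in a comparison with 4147 genes at an unadjusted p under 0.05; Spry4, a brake on the pathway, was at 0.53 ± 0.19 and Dusp6, an ERK phosphatase, at 0.34 ± 0.12.

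Contractile and SRF-YAP targets gave 3 falls among 19, and 1 without the block. Ccn2, a matrix-cell signalling protein, had log2 levels of 10.80, 8.68, 10.59, 10.24 and 10.58 in 25,26 cells, against 10.83, 11.39 and 11.64 (lowest, median, highest) in Null cells. It fell by 1.27 ± 0.28 (adjusted p = 0.0059; 0.0573 without the block). It was also 2.34 lower than in WT (95% interval -2.95 to -1.73), and WT exceeded Null by 1.07. Amotl2 fell by 0.70 ± 0.17 and ended without 25,26 replicate 2 or 3 (-0.51 and -0.65). Of 21 heparan sulfate genes Sulf2 and Hs3st1 (0.77 ± 0.23), a sulfotransferase, rose, and Hs3st1 lost its call without 25,26 replicate 2 or 3, LSL-WT Empty replicate 2 or Null Cre replicate 2 (0.57 to 0.74). In the NRF2 list 3 of 10 rose, none without the block, with Hmox1, a haem oxygenase, at 0.83 ± 0.16 (adjusted p = 0.00248; 0.172 without the block). Of 19 glycolysis genes 5 fell and 1 rose; 1 fell when the Xist level entered the fit, and 1 without the block: Tpi1, triosephosphate isomerase (-0.26 ± 0.07), a call that ended without 25,26 replicate 3 (-0.25). Hk2, hexokinase, was at -0.61 ± 0.12 (adjusted p = 0.00199; 0.259 without the block). Of 23 genes for unfolded protein and amino-acid stress 2 rose in both fits, Dnajb9 (0.57 ± 0.10) and Edem1 (0.49 ± 0.09), both acting on misfolded proteins of the endoplasmic reticulum, and 1 fell. Cholesterol and fatty acid synthesis had 3 falls of 26 (none when the Xist level entered the fit), the extracellular matrix 1 of 27 (Emilin1, -0.68 ± 0.19), the IGF axis 1 rise (Igf2r, 0.52 ± 0.11) and 1 fall of 10, and NF-kB regulators 1 rise (Rela, 0.31 ± 0.08) and 1 fall of 13, none of them without the block. Emilin1 lost its call without 25,26 replicate 2 or 3 (-0.55 and -0.68) and Rela without replicate 3 or 4 (0.30 and 0.29). Over all genes tested 7.62% rose and 6.57% fell, so single calls in lists of this size are near that share or below it.

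**Figure D5:**
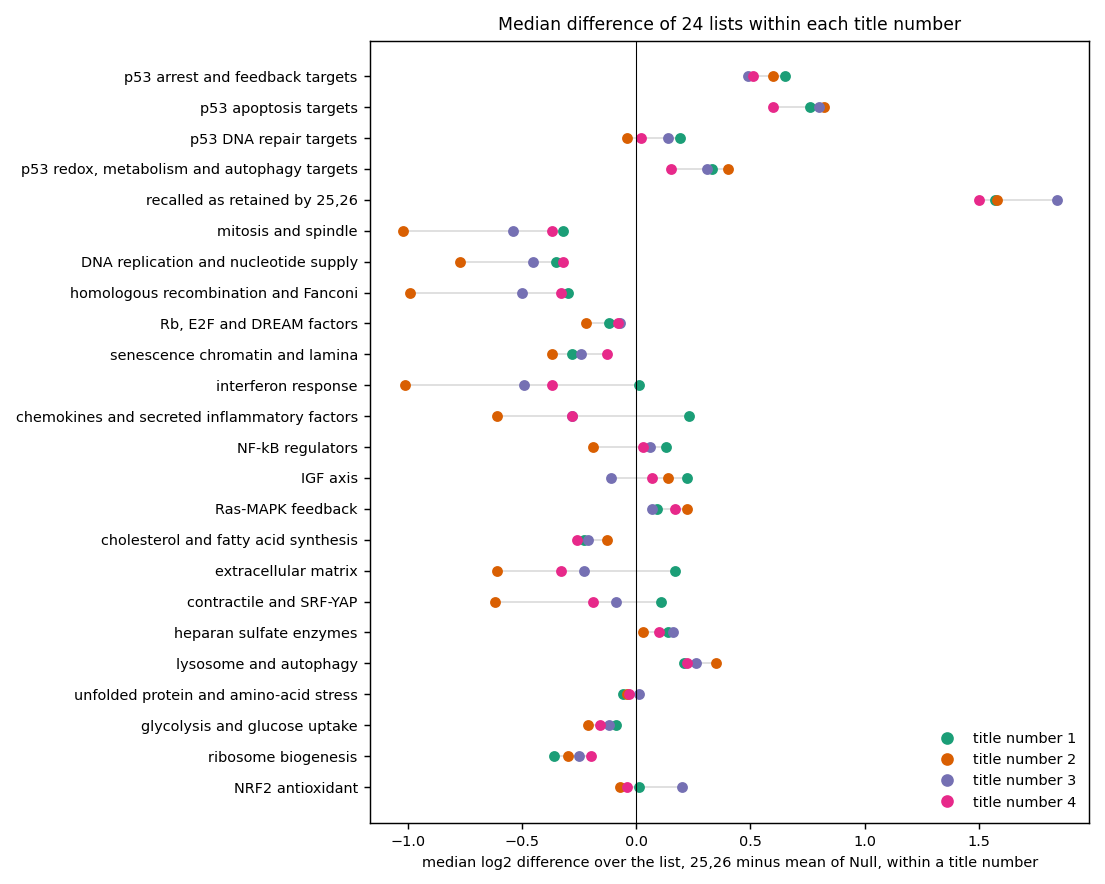
Median log2 difference over the genes of each list (rows), 25,26 minus the mean of the Null arrays of the same title number (x axis), 1 point for each of title numbers 1 to 4. The p53 arrest list lies between 0.49 and 0.65 and the lysosome list between 0.21 and 0.35, while interferon-response genes spread from -1.01 to 0.01.

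Outside these lists, the largest rises that passed in both fits and did not overlap included 1700007K13Rik (3.91 ± 0.29), Tbc1d8, a Rab GTPase-activating protein (2.80 ± 0.28), Cdc42bpg, a kinase (2.42 ± 0.21), Tex15, a germ-cell gene (2.40 ± 0.32), Sytl1, a vesicle protein (2.40 ± 0.38), the receptor Notch3 (2.36 ± 0.21), Pltp, a phospholipid transfer protein (2.34 ± 0.29), Ldhb, a lactate dehydrogenase subunit (2.28 ± 0.21), and Dcxr, a sugar reductase (2.19 ± 0.28). Of these, 1700007K13Rik and Dcxr stood below WT, with differences of -1.67 and -1.53, and Ldhb above it, with 0.85. Tex15 and Pltp differed from WT by 0.17 and -0.17. Tbc1d8, Cdc42bpg, Sytl1 and Notch3 lay within 0.06 of WT, at -0.05, -0.06, -0.01 and -0.02. The 15 largest falls chosen in the same way were smaller, from -0.79 to -1.03, and included Fndc4 (-1.03 ± 0.23), Bdh1, a ketone body enzyme (-0.95 ± 0.20), the nucleoside transporter Slc29a1 (-0.89 ± 0.16), Ifrd2 (-0.87 ± 0.14), the resolvase Gen1 (-0.83 ± 0.17), Mxd3, a Max-binding repressor (-0.82 ± 0.10), and the helicase gene Mcm8 (-0.80 ± 0.16).

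Among the genes with the largest differences from WT were several that did not pass against Null. Ano3, a membrane protein of the anoctamin family, differed from WT by -3.70, Btn1a1, butyrophilin, by -3.03, and the cornified-envelope genes Crct1 and Ivl by -2.88 and -2.78. Against Null none of these 4 passed, at 0.61 ± 0.24, 0.02 ± 0.29, 0.78 ± 0.51 and 0.43 ± 0.39. Nnat, neuronatin, and Mdk, midkine, a growth factor, were 2.25 and 2.12 higher than in WT, and 0.52 ± 0.41 and 0.31 ± 0.36 against Null. Cxcl10, an interferon-induced chemokine, was 1.84 higher than in WT and -1.07 ± 0.42 against Null (adjusted p = 0.106). Against QM, the largest falls among genes that passed with and without the block were Igsf5 (-1.02), Plac1 (-0.84) and Mxd3 (-0.74), then the helicase Recql4 (-0.69), the polymerase subunit Pold2 (-0.61) and the kinetochore gene Dsn1 (-0.59).

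Markers checked the fibroblast label. None of 10 fibroblast markers passed, although the difference was below 0 for 9 of them, with a median of -0.28. Their mean log2 level ran from 12.56 to 12.76 in 25,26 and from 12.63 to 13.63 in Null cells. Of 11 tested epithelial markers 1 rose, Dsp, a desmosomal protein (1.54 ± 0.49, adjusted p = 0.0449; 0.082 without the block), and the list's mean level was 6.68 to 7.02 in 25,26 and 6.23 to 6.71 in Null cells. The difference was above 0 for 9 of the 11, and Krt19 (0.92 ± 0.38), Krt18 (0.80 ± 0.26, adjusted p = 0.0512), Cdh1 (0.22 ± 0.53) and Epcam (0.01 ± 0.07) did not pass. The part of epithelial cells in the results was not tested. Eng, an endothelial marker (0.39 ± 0.13), and Sox9, a cartilage marker (0.32 ± 0.10), passed with the block alone. No tested macrophage, neural, adipocyte or skeletal muscle marker passed. The Y-linked genes Eif2s3y, Kdm5d and Uty had differences of -3.66 ± 1.62, -2.01 ± 0.95 and -1.48 ± 0.57, and Xist of 3.88 ± 1.62, none past the threshold.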

How the data were processed

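RNA of 23 mouse embryonic fibroblast samples was measured on Affymetrix oligonucleotide arrays. The authors deposited 1 intensity per probe set on a linear scale, from 8.548 to 32042.1, computed with RMA per the submitters' processing notes; its version and options are not given in the sources used here. Array medians ran from 59.9 to 64.22; precision is limited by how many arrays there are.

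The deposited intensities were taken to log2. Of 45101 probe sets 64 controls were left out; 34945 had 1 gene symbol, 932 several and 9160 were not listed, and the last 2 kinds were not used. The probe set with the highest mean stood for each of 18193 genes, and the 15266 with at least 3 arrays above the 30th percentile (log2 4.79) were tested. Of 24 genes given array by array, 12 had several probe sets, and 1 had a probe set of the other sign. limma 3.58.1 in R 4.3.3 fitted 5 groups and the title number as a fixed block to all 23 arrays, with the default moderated two-sided test. The numbers were taken to pair the samples because residuals from the labelled group means correlated over 0.1 in all 6 same-number pairs of 25,26 and Null arrays (0.15 to 0.60, median 0.41). Pairs of different numbers ran from -0.61 to 0.60 (median -0.09, 5 of 24 over 0.1), so the 2 ranges overlapped. The highest of these was 25,26 replicate 5 with Null Cre replicate 4. The source is this check, since the labels do not state what the number marks; from the means of the 5 groups 5 of 6 pairs were over 0.1.

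Members and lists, and how genes were picked for naming, were chosen with earlier results of these data known. The rule took the 15 largest rises and 15 largest falls that passed with and without the block and did not overlap, every measured p53 target, the 5 genes of largest statistic in each other list, the 6 largest rises and falls against QM and WT, and the markers; genes outside it are marked as named after their values were seen. The procedure was tested on simulated data. Alternatives covered the block, filter, probe set rule, scaling, strain, Xist, variance model, array weights, each kind of Null and of WT cells alone and each array left out in turn, and, added after seeing the data, each title number left out. Some genes and probe sets are not reported here. For WT Cre replicate 3 the genotype label reads LSL-WT, and that of Null Cre replicate 4 adds the word knock-in.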

Additional observations from a re-analysis of the deposited data

Results flagged for a closer look

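Single arrays that stood apart were looked for in the 24 genes given array by array, in the 25,26 and the Null group each, by Dixon's test of the gap over the range. Of 48 such sets 3 were marked, where chance marks about 1 in 20. Cdc6 in 25,26 replicate 2 lay at a log2 level of 7.54, against 8.91 to 9.25 in the other 25,26 arrays. Ccn2 in the same array lay at 8.68, against 10.24 to 10.80. Ccng1 in LSL-WT Empty replicate 1 lay at 10.33, against 10.73 to 10.95 in the other Null arrays.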

How the results depend on the processing

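Against Null, 2167 genes passed. Without the replicate block 656 did, with the Xist level in the fit 1344, with array weights 3416, with the Null Cre arrays alone as Null 1308, and without title number 2 or 3 958 and 680. Against QM, 603 passed, and 103 without the block, 105 with the compared arrays alone and 1992 with array weights. Against WT, 1828 passed, and 1176 without the block, 522 with the compared arrays alone and 1035 with LSL-WT Cre alone as WT. Leaving out 1 array at a time gave 1169 (without 25,26 replicate 2) to 2087 (without Null Cre replicate 2) against Null. Against QM it gave 117 (without QM replicate 2) to 468 (without 25,26 replicate 1). Against WT it gave 981 (without 25,26 replicate 1) to 2069. These ranges exclude 25,26 replicate 5, which has no weight, so that its omission could only return the main counts. No named gene that passed changed sign in any setting; of 75 that did not pass, 14 did, among them Dram1 (-0.84 to 0.60), and 37 passed in none of their settings. Of 135 that passed, 54 did so in all 29 settings, and Plscr2 in the 28 that tested it. With the Xist level in the fit the falls of DNA repair, redox, interferon, NF-kB, IGF and unfolded protein genes (2, 1, 1, 1, 1 and 1) were none and the chemokine rise was lost, while 1 of 2 arrest falls passed and 1 Ras-MAPK gene rose. The 14 retained genes passed in each setting; counts for cell-cycle and ribosome genes varied as given in the text. The cause of these differences was not tested. Precision is limited by the number of arrays.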
